A study of Ovis aries with 8 samples.

Results

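The insulin-like growth factors (IGFs) are secreted hormones that drive growth before and after birth. IGF1 and IGF2 act mainly through the IGF1 receptor, while IGF2R, the mannose 6-phosphate receptor, takes up IGF2 for breakdown. In body fluids and tissue matrix most IGF is held by IGF binding proteins, which carry the ligands, restrain them or release them near the receptor, and some of which also act without a ligand. Blood vessel walls make several of these binding proteins, and the IGF axis has long been studied in fetal growth.

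The genes described here were chosen by name, as 10 listed genes of the IGF ligands, IGF2R and the binding proteins IGFBP1 to IGFBP7. The rule itself uses no measured value, but the list was chosen with earlier results of these data known. A row carried the symbol of 8 of the 10: IGF1, IGF2, IGFBP1, IGFBP2, IGFBP4, IGFBP5, IGFBP6 and IGFBP7. IGFBP3 and IGF2R matched no row, either by symbol or by their RefSeq gene number, and are not analysed here. The 8 genes stand among 14577 genes in the table as it was used.

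The arrays measured RNA of cultured pulmonary artery endothelial cells, which line the vessel from the right heart to the lungs, taken from sheep fetuses near term. There were 4 IUGR cultures, from a model of intrauterine growth restriction and labelled hyperthermic, and 4 control cultures labelled normothermic, with 1 array each. The medium of every culture was DMEM with fetal bovine serum. The titles give each culture its own identifier, but the labels do not say that each came from a separate fetus. IUGR cultures were at passage 3 or 4 and control cultures at passage 5 or 6, so growth restriction, hyperthermia and passage cannot be told apart here. Strain, fetal age and the details of the heat exposure are not given in the sources used here.

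Several cultures stood apart from their group or went against the cell label. PECAM1, a junction protein used as an endothelial marker, had intensities of 199, 9.89, 725 and 12.3 in IUGR replicates 1 to 4, against 2216, 2513, 2995 and 788 in control replicates 1 to 4. CDH5, the endothelial cadherin, was 213, 7.20, 687 and 11.2 in IUGR replicates 1 to 4, against at least 598 in every control. Some endothelial markers, named after their values were seen, went otherwise. PROCR was 239, 314, 740 and 181 in IUGR replicates 1 to 4, against 190 to 399 in control, and PLVAP was highest in IUGR replicate 3, at 1449. The background level, taken as the 95th percentile of 127 olfactory receptor genes, which serve smell and were taken as unexpressed here, was 10.8 intensity units, or 3.44 on the log2 scale. In IUGR replicates 2 and 4, 6 of 15 endothelial markers were at or below it, and none was on any other array. These 2 arrays also had the highest values of 9 of 12 mesothelial and epithelial markers, among them WT1 at 242 and 594 and KRT18 at 533 and 2104. The other 3, named after their values were seen, went otherwise, with EPCAM highest in IUGR replicate 3 at 27.0, KRT5 highest in control replicate 4, and KRT7 in IUGR replicate 2 below several arrays. Control replicate 4 had higher values of most fibroblast and muscle markers than the other controls. DCN, a matrix proteoglycan, was at 279 beside 7.60 to 155, and ACTA2, smooth muscle actin, at 8704.7 beside 88.1 to 396. FBLN1, another fibroblast marker, went the other way, with its lowest value of all arrays in control replicate 4. Summed over 13 smooth muscle and pericyte markers, intensity ran from 2472 to 11561 in IUGR and from 1496 to 18419.7 in control, and over 10 leukocyte markers from 267 to 1227 in IUGR and from 534 to 1490.1 in control. LAPTM5 alone made up most of the highest leukocyte sums, at 987 in IUGR replicate 3 and 1087 in control replicate 2. On each array 3 to 6 of the 10 leukocyte markers did not exceed the background level. In a bulk culture, fewer cells of a type and less RNA per cell cannot be told apart. Differences of the IGF genes that rest on these 3 arrays are given with and without them.

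Over all genes, 10 of 14577 (0.0686%) passed limma at an adjusted p under 0.05, and 0 of the 8 IGF genes did. At an unadjusted p under 0.05, 2 of the 8 were called, IGFBP5 and IGFBP6, both higher in IUGR, where 15.9% of all genes were called in either direction, 8.2% as higher and 7.68% as lower. The groups did not overlap for 1 of the 8, IGFBP5, where 8.65% of all genes had groups apart 4.53% with IUGR higher and 4.12% with IUGR lower. With 8 genes, the shares of 25.0% and 12.5% are near these backgrounds and are no result about the members. By group mean, IGFBP2, IGFBP5 and IGFBP6 were higher in IUGR and the other 5 were lower, with a median difference of -0.27 on the log2 scale, beside 0 over all genes. Intensities are linear, differences are of log2 intensity, IUGR minus control, and each ± is an SD over 4 arrays unless called an SE. Different rows use different probes, so no gene's level is set against another's.

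**Figure D1:**
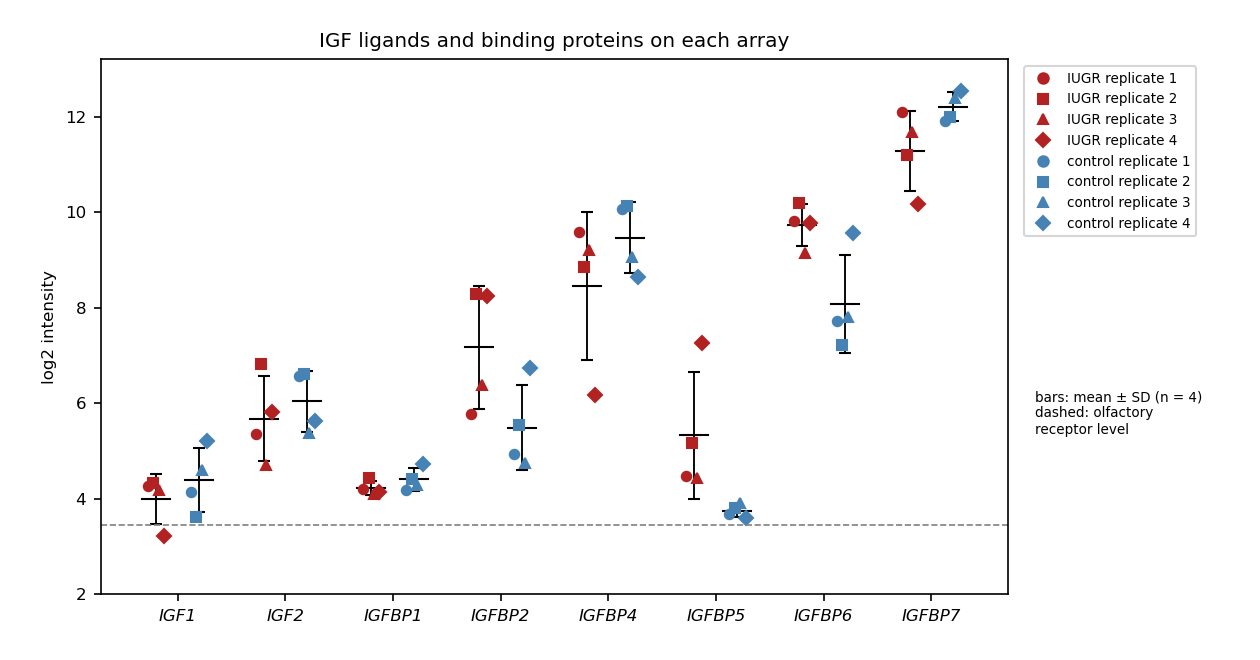
Log2 intensity (vertical axis) of the 8 measured IGF genes (horizontal axis), IUGR arrays in red to the left of control arrays in blue, with the replicate shown by the marker shape and bars for the mean ± SD of 4 arrays. The dashed line is the olfactory receptor level of 3.44, and the groups lie apart for IGFBP5 alone among the 8 genes.

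The growth factor genes themselves showed no call. IGF1 had intensities of 19.3, 20.1, 18.0 and 9.31 in IUGR replicates 1 to 4, against 17.6, 12.3, 24.2 and 36.8 in control replicates 1 to 4. Its groups overlapped, with control replicate 4 highest and IUGR replicate 4 lowest, the last below the olfactory receptor level. The difference was -0.39 ± 0.40 (SE), with an adjusted p of 0.696 and a 95% interval of -1.34 to 0.55. Its direction turned without IUGR replicates 2 and 4 and control replicate 4, to 0.10 ± 0.32 (SE, adjusted p = 0.927). Without IUGR replicate 4 and control replicate 4, a setting chosen after seeing the data, it was 0.14 ± 0.26 (SE, adjusted p = 0.840). All IGF1 values lay within a factor of 4 of the background level, which limits what these arrays could show of it.

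IGF2, the ligand that dominates fetal growth and is expressed from the paternal allele, had intensities of 41.1, 112, 26.1 and 56.4 in IUGR replicates 1 to 4. The control values were 94.3, 97.1, 41.2 and 49.5. IUGR replicate 2 was the highest of the 8 arrays and IUGR replicate 3 the lowest, so the control values lay inside the IUGR range. The difference was -0.36 ± 0.51 (SE, adjusted p = 0.791 in limma), with a 95% interval of -1.57 to 0.84. Single cultures moved it, to -0.74 ± 0.43 (SE, adjusted p = 0.526) without IUGR replicate 2 and to -0.04 ± 0.48 (SE, adjusted p = 1.00) without IUGR replicate 3. Without IUGR replicates 2 and 4 and control replicate 4 it was -1.14 ± 0.51 (SE, adjusted p = 0.347), and when the endothelial score entered the fit it was -1.28 ± 0.62 (SE, adjusted p = 0.680). The endothelial score nearly separates the groups, so a fit that holds it, for this gene or another, cannot tell score from group. The IGF2 difference turned to 0.016 ± 0.88 (SE) with the fibroblast score and to 0.66 ± 1.62 (SE, adjusted p = 0.982) with passage as a covariate. Both the size and the direction of the IGF2 difference thus varied between fits, and in none of them did it pass.

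IGFBP6, which binds IGF2 far more tightly than IGF1, was the gene with the smallest p of the 8. It had intensities of 906, 1178, 566 and 869 in IUGR replicates 1 to 4, against 210.3, 149, 224 and 756 in control replicates 1 to 4. All 4 IUGR cultures were above control replicates 1 to 3, but control replicate 4 lay inside the IUGR range. The log2 means were 9.73 ± 0.44 in IUGR and 8.08 ± 1.02 in control (n = 4 each), a difference of 1.66 ± 0.52 (SE) or 3.15-fold, with a 95% interval of 1.34-fold to 7.41-fold. It did not pass in limma (adjusted p = 0.204, unadjusted p = 0.0155).

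The IGFBP6 result turned on control replicate 4. Without that array the difference was 2.15 ± 0.28 (SE) and IGFBP6 rose in IUGR in limma (adjusted p = 0.0249), in a fit where 1.37% of all genes passed as higher and 2.53% in either direction. Without IUGR replicates 2 and 4 it was 1.41 ± 0.72 (SE, adjusted p = 0.511). Without all 3 of these arrays it was 1.90 ± 0.31 (SE, adjusted p = 0.0846).

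Fibroblast markers, taken as a score, were higher on the arrays where IGFBP6 was high. The fibroblast score, the mean over 16 measured markers of the log2 value minus each gene's mean, was 2.31, 1.64, 1.37 and 0.66 in IUGR replicates 1 to 4, against -2.01, -2.55, -2.51 and 1.09 in control replicates 1 to 4. The 5 arrays with a positive score were the 5 with IGFBP6 at or above 566, and the 3 with a negative score were those at or below 224. Within IUGR the order differed, with IGFBP6 at 869 in replicate 4, at a score of 0.66, and 566 in replicate 3, at 1.37. The summed intensity of these markers ran from 14727.5 to 29179 in IUGR and from 2031 to 18427 in control, while 5 of the 16 did not exceed the background level on control replicates 1 and 3, 4 did not on control replicate 2, and all did elsewhere. With the fibroblast score as a covariate, the IGFBP6 difference was 0.12 ± 0.47 (SE, adjusted p = 0.985), and with the endothelial score it was 0.93 ± 0.72 (SE, adjusted p = 0.811). Apart from control replicate 4, the fibroblast score separates the groups, so this fit cannot tell score from group. The part of fibroblast content in the IGFBP6 values was not tested.

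**Figure D2:**
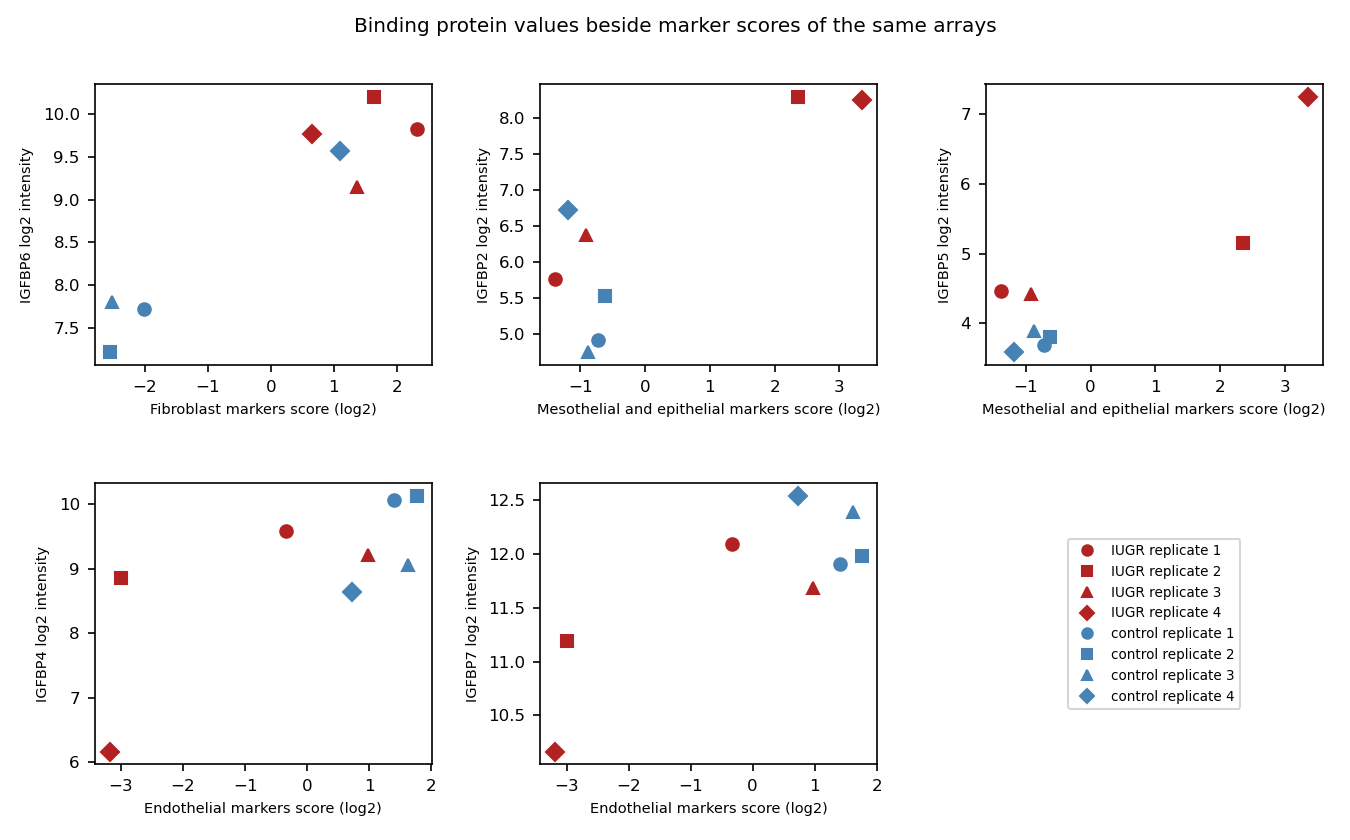
Each panel sets the log2 intensity of 1 binding protein (vertical axis) against a marker score of the same array (horizontal axis, mean centred log2 of the marker list), 1 point per array, IUGR in red and control in blue with the replicate shown by the marker shape. IGFBP6 is high on the 5 arrays with a positive fibroblast score, and IGFBP2 and IGFBP5 are highest on the pair of IUGR arrays with a high mesothelial and epithelial score.

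IGFBP5, a matrix-bound binding protein and the most conserved of the family, was the member whose groups did not overlap. Its intensities were 22.1, 35.7, 21.5 and 152 in IUGR replicates 1 to 4, against 12.8, 14.0, 14.9 and 12.0 in control replicates 1 to 4. Every IUGR culture was above every control, and IUGR replicate 4 was 4.27 times the next highest array. The controls lay close together, within 0.31 on the log2 scale, and little above the background of 10.8. The log2 means were 5.32 ± 1.33 in IUGR and 3.74 ± 0.14 in control (n = 4 each). The difference of 1.58 ± 0.62 (SE) corresponds to 2.99-fold, with a 95% interval of 1.08-fold to 8.32-fold, and did not pass in limma (adjusted p = 0.290, unadjusted p = 0.0389).

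One array set the size of the IGFBP5 difference. Without IUGR replicate 4 it was 0.94 ± 0.20 (SE, adjusted p = 0.173), and without IUGR replicates 2 and 4 it was 0.70 ± 0.11 (SE, adjusted p = 0.188). Leaving out those 2 arrays and control replicate 4 gave 0.65 ± 0.09 (SE, adjusted p = 0.0670). With log2(value + 32) in place of the floor it was 0.77 ± 0.39 (SE, adjusted p = 0.419). When the endothelial score entered the fit it was 0.31 ± 0.68 (SE, adjusted p = 0.973), and with the fibroblast score it was 2.39 ± 1.02 (SE, adjusted p = 0.481). IGFBP5 stayed higher in value in IUGR in these fits and passed the threshold in none.

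IGFBP2, which binds IGF2 more readily than IGF1 and is a main binding protein of fetal plasma, differed widely between cultures. Its intensities were 54.4, 313, 83.2 and 302 in IUGR replicates 1 to 4, against 30.4, 46.3, 26.9 and 106 in control replicates 1 to 4. IUGR replicates 2 and 4 were far above the rest, control replicate 4 was above IUGR replicates 1 and 3, and the groups overlapped. The log2 means were 7.17 ± 1.29 in IUGR and 5.48 ± 0.89 in control (n = 4 each). The difference of 1.68 ± 0.73 (SE), or 3.21-fold with a 95% interval of 0.968-fold to 10.7-fold, did not pass in limma (adjusted p = 0.325).

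Without IUGR replicates 2 and 4 the IGFBP2 difference was 0.59 ± 0.63 (SE, adjusted p = 0.762), and without control replicate 4 as well it was 1.00 ± 0.34 (SE, adjusted p = 0.244). In a fit that also held the endothelial score as a term, IGFBP2 differed by -0.01 ± 0.67 (SE, adjusted p = 1.00). The mesothelial and epithelial score was highest on the same pair of arrays. This score over 12 measured markers was -1.39, 2.36, -0.91 and 3.35 in IUGR replicates 1 to 4, against -0.73, -0.62, -0.88 and -1.19 in control replicates 1 to 4. Their summed intensity ran from 207 to 17896 in IUGR and from 293 to 1462 in control, while between 0 and 6 of the 12 did not exceed the background level on each array. The part of the cells that carry these markers in the IGFBP2 and IGFBP5 values was not tested.

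On the RefSeq sheep assembly ARS-UI_Ramb_v3.0, used for gene order only, IGFBP2 and IGFBP5 are neighbouring protein-coding genes. For both, IUGR replicates 2 and 4 held the highest values. They differed in proportion between these arrays. IUGR replicate 2 matched replicate 4 in IGFBP2, at 313 against 302, and was well below it in IGFBP5, at 35.7 against 152. Control replicate 4 had the most IGFBP2 of the controls and the least IGFBP5. TNP1, the protein-coding gene on the other side of IGFBP5, named after its values were seen, lay between 5.93 and 8.08 on all 8 arrays, below the olfactory receptor level.

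IGFBP7, a matrix-associated protein of vessel walls with low affinity for IGF, had intensities of 4381, 2342, 3284 and 1147 in IUGR replicates 1 to 4. The control values were 3856, 4051, 5365 and 5960.5. IUGR replicates 2, 3 and 4 were below every control, and IUGR replicate 1 lay among them. The log2 means were 11.28 ± 0.83 in IUGR and 12.21 ± 0.31 in control (n = 4 each), a difference of -0.92 ± 0.41 (SE), or 1.90-fold lower, that did not pass in limma (adjusted p = 0.341).

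IGFBP4, an inhibitory binding protein that the protease PAPP-A cleaves to release IGF, had intensities of 764, 460.2, 592 and 71.8 in IUGR replicates 1 to 4. The control values were 1066, 1114, 531 and 398. IUGR replicate 4 was 5.54 times below the next lowest array, and the other 3 IUGR cultures lay inside the control range. The difference was -1.02 ± 0.80 (SE, adjusted p = 0.595 in limma), and without IUGR replicate 4 it was -0.26 ± 0.44 (SE, adjusted p = 0.848).

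IUGR replicate 4, which had the lowest IGFBP7 and IGFBP4 values, also had the lowest endothelial score. The endothelial score over 15 measured markers was -0.33, -2.99, 0.98 and -3.18 in IUGR replicates 1 to 4, against 1.41, 1.77, 1.63 and 0.73 in control replicates 1 to 4. The summed intensity of these markers ran from 413 to 8056 in IUGR and from 6537 to 13168 in control. IGFBP4 and IGFBP7 did not follow the endothelial score on every array. IUGR replicate 2, with a score of -2.99, had IGFBP4 at 460.2, above control replicate 4 at 398. Control replicate 4 had the lowest score of the controls and the highest IGFBP7 value, 5960.5. Without IUGR replicates 2 and 4 the IGFBP7 difference was -0.32 ± 0.24 (SE, adjusted p = 0.657) and the IGFBP4 difference was -0.07 ± 0.51 (SE, adjusted p = 1.00). When the endothelial score entered the fit, they were -0.15 ± 0.50 (SE, adjusted p = 0.993) and 0.48 ± 0.95 (SE, adjusted p = 0.959), the second with its direction turned. Of the IUGR cultures only replicate 3 had an endothelial score above that of any control, so this fit cannot tell score from group. With the fibroblast score the differences were -1.66 ± 0.63 (SE, adjusted p = 0.434) for IGFBP7 and -1.04 ± 1.42 (SE, adjusted p = 0.838) for IGFBP4.

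IGFBP1, a phosphoprotein made chiefly by liver and decidua, varied least. Its intensities were 18.4, 21.5, 17.0 and 17.7 in IUGR replicates 1 to 4, against 18.2, 21.3, 19.4 and 26.5 in control replicates 1 to 4. All 8 arrays lay within 1.56-fold of each other, and the groups overlapped. The difference was -0.19 ± 0.14 (SE, adjusted p = 0.563 in limma), with a 95% interval of 0.703-fold to 1.10-fold.

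**Figure D3:**
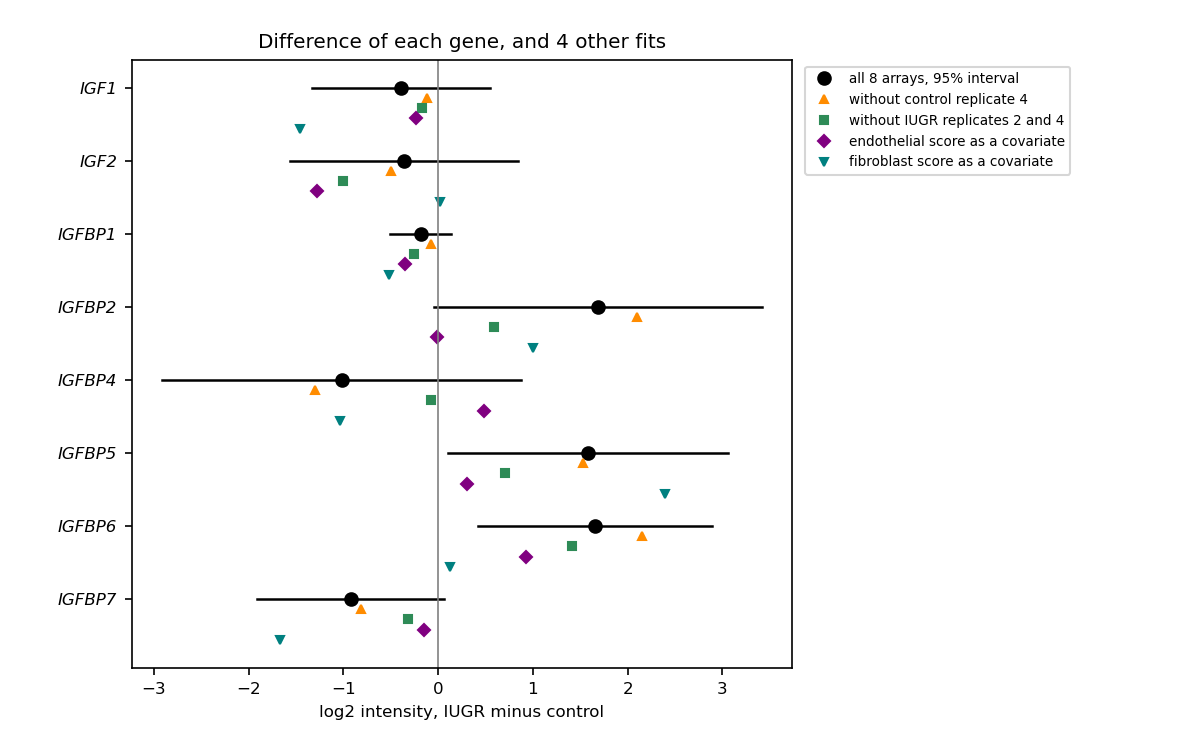
Log2 difference, IUGR minus control (horizontal axis), for each of the 8 genes (vertical axis), with black points and lines for the fit to all 8 arrays and its 95% interval, and coloured symbols for 4 other fits. The intervals of IGFBP5 and IGFBP6 lie above 0, IGFBP2 shrinks to -0.01 with the endothelial score as a covariate, and IGFBP6 shrinks to 0.12 with the fibroblast score. With the fibroblast score IGFBP7 moves to -1.66 and IGFBP5 to 2.39. Each score nearly separates the groups, so these fits cannot tell score from group.

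Other genes of the IGF pathway were counted from lists written with earlier results of these data known. Of 7 measured receptor and adaptor genes, 0 passed over all genes in limma, and 3 were higher and 1 lower in IUGR at an unadjusted p under 0.05. That is 57.1% of the list, beside 15.9% of all genes (8.2% higher and 7.68% lower), in a list of few genes whose choice was not blind to these data. The median difference of the list was 0.50, beside 0 over all genes. Groups lay apart for 42.9% of the list, beside 8.65% of all genes. INSR, the insulin receptor, which also binds IGF2 in 1 of its forms, had intensities of 41.4, 52.3, 35.2 and 24.2 in IUGR replicates 1 to 4, against 22.3, 14.3, 18.8 and 15.9 in control replicates 1 to 4. IRS1, the docking protein that links both receptors to PI3 kinase, had 46.9, 65.9, 35.1 and 46.9 in IUGR, against 17.6, 14.2, 22.5 and 24.3 in control. In both genes every IUGR culture was above every control, as in 4.53% of all genes. The differences were 1.07 ± 0.26 (SE, adjusted p = 0.136) for INSR and 1.30 ± 0.24 (SE, adjusted p = 0.0950) for IRS1.

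GAB1, a docking protein downstream of several growth factor receptors, went the other way. Its intensities were 119, 119, 76.1 and 148 in IUGR replicates 1 to 4, against 438, 665, 756 and 340.2 in control replicates 1 to 4, with no overlap. The difference was -2.22 ± 0.31 (SE), or 4.66-fold lower, with an adjusted p of 0.0838 in limma. Over all genes, 4.12% had groups apart with IUGR lower. LRP1, a scavenger receptor that also binds IGFBP3, had 998, 832, 395 and 353 in IUGR, against 29.2, 29.9, 15.6 and 357 in control. Control replicate 4 again lay inside the IUGR range, and the difference was 3.64 ± 0.99 (SE, adjusted p = 0.163). Without that array LRP1 rose by 4.61 ± 0.48 (SE, adjusted p = 0.0139 in limma) and GAB1 fell by 2.43 ± 0.29 (SE, adjusted p = 0.0209), where 2.53% of all genes passed. This setting was chosen for these genes after seeing the data, and for LRP1 it drops the control that lay with IUGR. Without IUGR replicates 2 and 4 the differences were 3.74 ± 1.41 (SE) for LRP1 and -2.46 ± 0.41 (SE) for GAB1. Neither passed (adjusted p = 0.393 for LRP1 and 0.213 for GAB1), in a setting where no gene passed. IGF1R had no row under that symbol; a row named IGFR1 matched no symbol or synonym in the RefSeq table and was not used in its place.

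Of 7 measured genes for proteases that can cut binding proteins and for inhibitors of such proteases, 0 passed over all genes in limma, and 1 (14.3%) was called at an unadjusted p under 0.05, beside 15.9% of all genes. That gene was ADAM9, a membrane protease whose human form can cut IGFBP5, at 1102, 884, 697 and 539 in IUGR, against 322, 370.4, 209.6 and 788 in control (difference 1.05 ± 0.43 SE, adjusted p = 0.300). Without control replicate 4 the ADAM9 difference was 1.41 ± 0.31 (SE, adjusted p = 0.0802). STC1 and STC2, stanniocalcins that block PAPP-A, differed by 0.09 ± 0.74 (SE, adjusted p = 0.992) and 0.91 ± 0.42 (SE, adjusted p = 0.355). HTRA1, a secreted protease with an IGFBP-like domain, differed by 0.42 ± 0.22 (SE, adjusted p = 0.406). PAPPA, PAPPA2 and IGFALS matched no row.

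Of 6 measured regulators of the IGF2 transcript, 0 passed at either threshold in limma. The RNA-binding proteins IGF2BP2 and IGF2BP3 differed by 0.03 ± 0.23 (SE) and -0.56 ± 0.73 (SE), with IGF2BP3 at 7.25 and 20.6 in IUGR replicates 2 and 4, against 54.8 and 73.4 in IUGR replicates 1 and 3 and 28.1 to 55.0 in control. H19 matched no row. Of 4 genes for the mannose 6-phosphate tag that IGF2R recognises and its other receptor, 0 passed at either threshold; M6PR differed by 0.25 ± 0.13 (SE) and GNPTAB by 0.55 ± 0.30 (SE). Of 9 further proteins with an IGFBP-type domain, 0 passed over all genes and 1 was lower at an unadjusted p under 0.05. That share of 11.1% stands beside 15.9% of all genes called in either direction and 7.68% called as lower. That gene was NOV, at 80.9, 1153, 35.9 and 53.7 in IUGR, against 392, 934, 1329.5 and 851 in control, a matrix signalling protein of the CCN family (difference -2.79 ± 1.11 SE, adjusted p = 0.294). IUGR replicate 2 lay inside the control range, and without IUGR replicates 2 and 4 the NOV difference was -3.89 ± 0.60 (SE, adjusted p = 0.191).

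**Figure D4:**
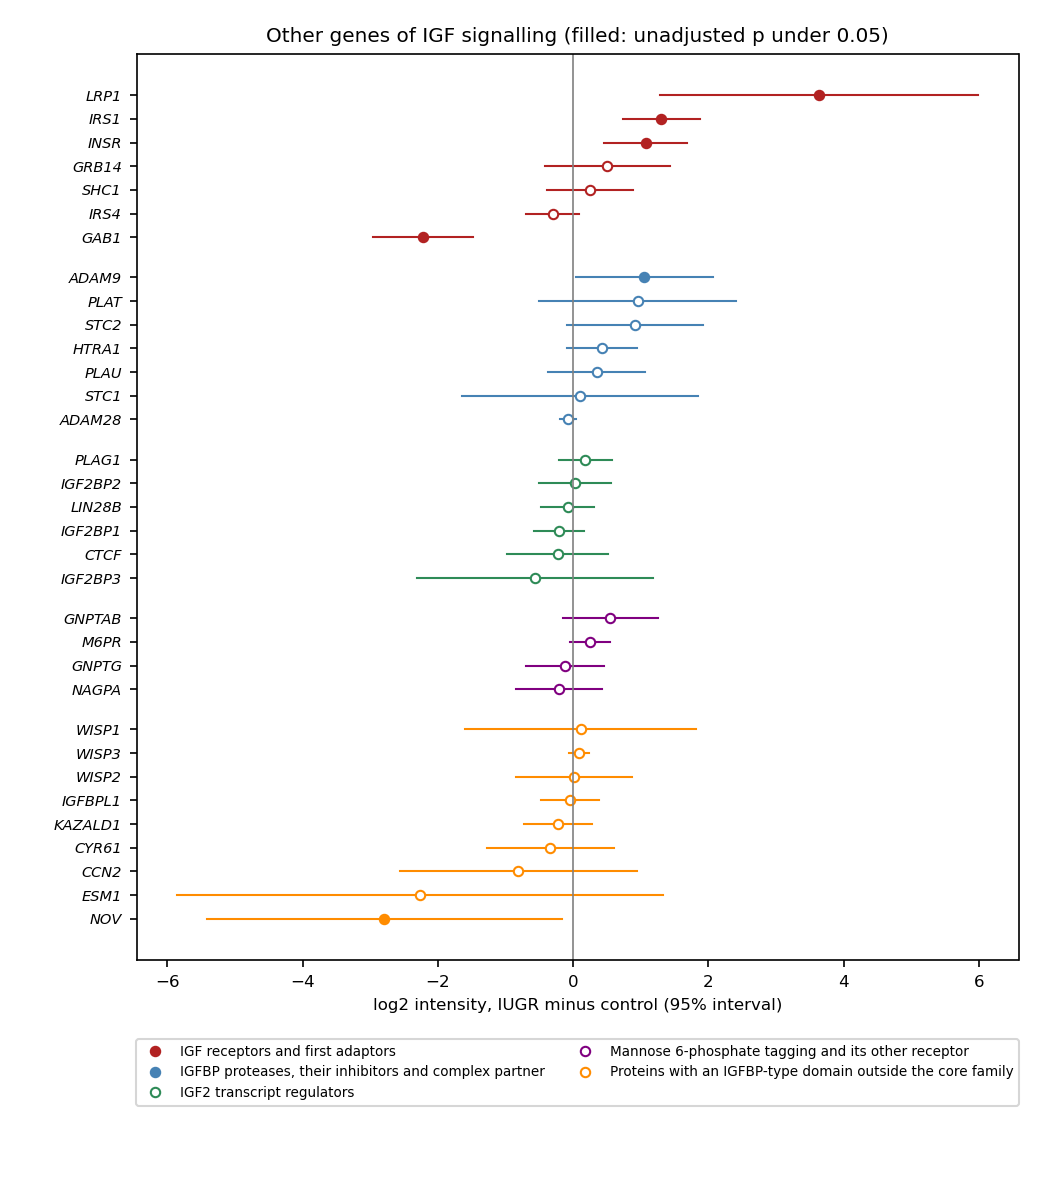
Log2 difference, IUGR minus control (horizontal axis, lines for 95% intervals), of the 33 measured genes of 5 IGF pathway lists (vertical axis, coloured by list), with filled points for an unadjusted p under 0.05. The 6 filled points are LRP1, IRS1, INSR and ADAM9 to the right of 0 and GAB1 and NOV to the left.

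The genes closest in profile were found for the 3 members whose log2 values spanned 3 or more over the 8 arrays, by the root mean square difference of centred log2 values among 1209 genes with as wide a span. This is a description over 8 arrays of 8 cultures, which differ in marker content. IGFBP2 was closest to MAP3K21, TMEM56 and WWC1, at 0.32, 0.35 and 0.41, against a median of 1.79 over the candidates. WWC1, also called KIBRA, is an upstream part of the Hippo pathway, and these genes were likewise highest in IUGR replicates 2 and 4. IGFBP4 was closest to DPYSL3, ADAMTSL5 and CCN2, at 0.40, 0.42 and 0.42, against a median of 1.81. CCN2 is connective tissue growth factor, and all 3 had their lowest value in IUGR replicate 4. IGFBP5 was closest to PRR16, MUM1L1 and PKHD1L1, at 0.27, 0.30 and 0.31, against a median of 1.83. These distances are set by IUGR replicate 4 and by values at or near background on the other arrays. PRR16 exceeded the olfactory receptor level of 3.44 on IUGR replicate 4 alone, and MUM1L1 and PKHD1L1 exceeded it on IUGR replicates 2 and 4 alone.

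**Figure D5:**
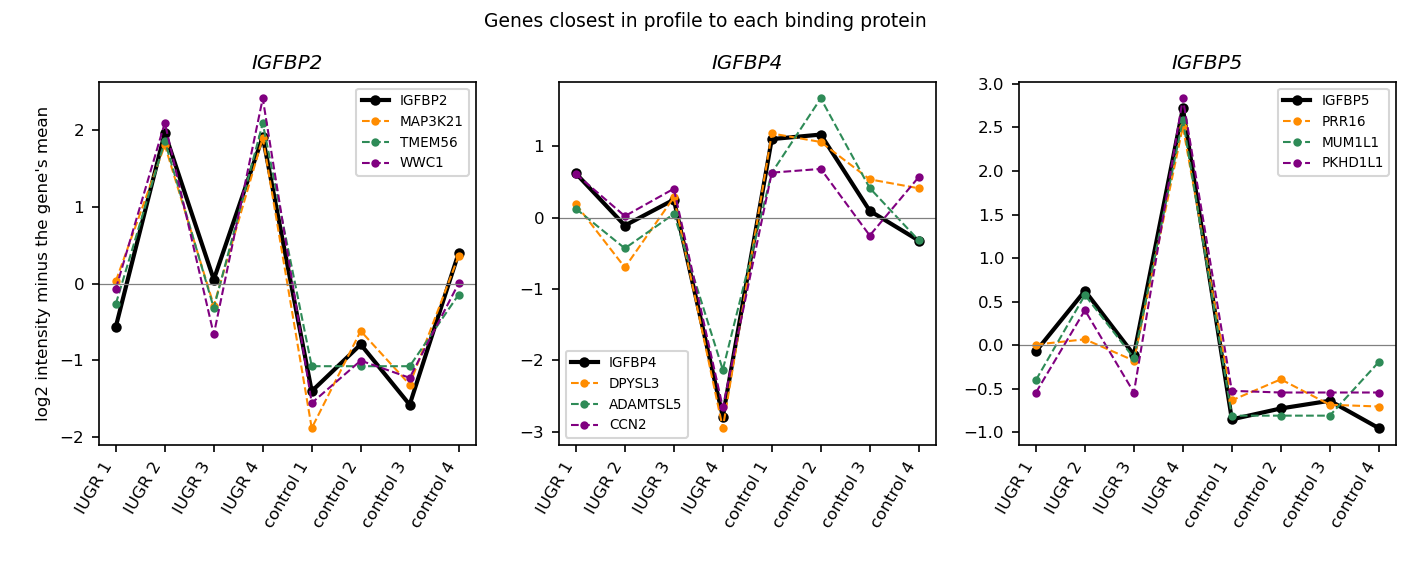
Log2 intensity minus each gene's mean (vertical axis) on the 8 arrays (horizontal axis, IUGR left of control) for IGFBP2, IGFBP4 and IGFBP5 in black and the 3 genes closest to each in colour. The profiles of IGFBP5 peak in IUGR replicate 4, those of IGFBP4 have their low point there, and those of IGFBP2 peak in IUGR replicates 2 and 4.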

How the data were processed

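The series holds 8 one-colour arrays, 4 IUGR and 4 control, grouped by the treatment label. The deposited intensity values are linear, as read from their range (2.77 to 8704.7), in 15380 rows named by gene symbol or NCBI gene number. Per the labels, biotinylated cRNA was made by an Affymetrix protocol. Background correction, probe summary and normalization are not given in the sources used here. Column medians were 37.7 to 41.1, so the arrays were not normalized again. No detection calls were used, and precision is limited by how few arrays there are.

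Names were updated through a RefSeq table of ARS-UI_Ramb_v3.0 (12809 rows by symbol, 51 by synonym, 109 by number, 1613 kept as named). The 798 rows with no symbol were left out, and 5 duplicates were dropped for the row with the higher mean, leaving 14577 genes. Values under the 10th percentile (5.89) were raised to it, then log2 was taken, which understates differences of dim genes. The comparison used the two-sided moderated test of limma 3.58.1 under R 4.3.3, with neither a filter nor a covariate, with Benjamini-Hochberg adjustment over all genes and a threshold of 0.05. The fit was tested on simulated data. Each culture has its own identifier in the titles, but the labels do not say that each came from a separate fetus, so p-values measure the spread between these cultures. The members and lists were chosen with earlier results of these data known. All 8 measured members are named, and of each pathway list up to 4 genes with the smallest unadjusted p plus 8 further listed genes, of marker lists up to 3 plus 9 listed genes. The alternatives were normalization, floor, filters, prior, array weights, covariates, the leading title number and left-out arrays.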

Additional observations from a re-analysis of the deposited data

Results flagged for a closer look

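IGF1 in IUGR replicate 4, at 3.22 on the log2 scale, stood far below the other 3 IUGR cultures, whose nearest value was 4.17. The gap took 0.858 of the group's range, above Dixon's critical value at the 95% level for 4 samples. This was 1 of 16 groups of 4 examined, and chance alone gives about 1 in 20. The value lay below the olfactory receptor level of 3.44.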

How the results depend on the processing

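No paired analysis was possible because replicate numbers were given in accession order and pair no cultures. The count of genes past the threshold in limma, 10 in the main analysis, was 2315 at an unadjusted p under 0.05, 19 after quantile normalization, 52 among genes at or above the median gene, 118 among genes above the olfactory receptor level, 61 with log2(value + 1), 74 with array weights and 1 with a trended prior. It was 0 with log2(value + 32), a robust prior, division by each array's median, passage, the endothelial score or the fibroblast score as a covariate, the 3 arrays whose leading title number occurs in both groups, or without IUGR replicates 2 and 4, settings in which 1017 to 2410 genes had an unadjusted p under 0.05. It was 0 to 369 with 1 array left out, 369 being without control replicate 4, 325 without that array and IUGR replicates 2 and 4, and 348 without both replicates numbered 4, a setting chosen after seeing the data, as were the left-out arrays for other pathway genes, under which LRP1 and GAB1 passed without control replicate 4. After division by the array median 991 genes were higher and 1419 lower at an unadjusted p under 0.05, beside 1195 and 1120 in the main analysis. The count of IGF genes past the threshold, 0, was 2 at an unadjusted p under 0.05, 0 to 1 with 1 array left out and 0 in every other setting. The 1 was IGFBP6 without control replicate 4, whose difference ran from 1.37 to 2.15 over the left-out arrays. IGFBP5, IGFBP6 and IGFBP7 kept their direction in every setting run, with an unadjusted p under 0.05 in 15 of 25, 21 of 26 and 6 of 26. Directions turned for IGF1 with passage (0.58), within the shared title number (0.11), without IUGR replicates 2 and 4 and control replicate 4 (0.10) and without both replicates numbered 4 (0.14), its range over left-out arrays starting at -0.65. They turned for IGF2 with passage (0.66) and the fibroblast score (0.016), for IGFBP1 with passage (0.52) and within the shared title number (0.0705), and with the endothelial score for IGFBP2 (-0.0073) and IGFBP4 (0.48). Other large moves kept the direction. With the fibroblast score IGF1 was -1.46, IGFBP1 -0.52 and IGFBP7 -1.66 (adjusted p = 0.370, 0.390 and 0.434). With passage IGFBP2 was 4.48 and IGFBP6 3.04 (adjusted p = 0.619 and 0.643). The cause of these turns and moves was not tested. The title number as a random block (correlation 0.011) left every member's value within 0.01 of the main one. IGFBP1, IGF1 and IGFBP5 lay near background in some or all cultures, which limits what could be seen.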

Other observations

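The protein-coding neighbours of IGFBP6 in the RefSeq gene order were looked at after the members' values were known. SPRYD3, on one side, had intensities of 106, 80.7, 103 and 105 in IUGR replicates 1 to 4, against 41.5, 65.3, 42.4 and 54.7 in control replicates 1 to 4, with no overlap (adjusted p = 0.0950 in limma). Over all genes, 4.53% had groups apart with IUGR higher. Unlike IGFBP6, SPRYD3 in control replicate 4 lay with the other controls. SOAT2, a sterol acyltransferase gene on the other side, lay between 12.5 and 17.9 on all 8 arrays.

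TOP2A, a topoisomerase of dividing cells and the neighbour of IGFBP4, had intensities of 65.7, 247, 332 and 278 in IUGR replicates 1 to 4, against 692, 243, 327 and 96.9 in control replicates 1 to 4, and the groups overlapped (adjusted p = 0.83 in limma).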
